A study of Mus musculus with 16 samples.

Results

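Transcript levels of 10 genes of the neuromuscular junction were followed through differentiation of C2C12 cells, mouse myoblasts that form myotubes once serum is lowered, with and without the microRNAs of the miR-206 family. The genes are the 5 subunits of the muscle acetylcholine receptor (Chrna1, Chrnb1, Chrnd, Chrng and Chrne), the receptor kinase Musk, its co-receptor Lrp4, its ligand Agrn, and the cytoplasmic partners Rapsn and Dok7. They were chosen by name and are 10 of the 35275 genes in the deposited table. Of these, 8 had a mean of at least 0.5 FPKM (fragments scaled to gene length and library size) over the 16 libraries and were tested, among 11832 genes that passed this level. Chrne and Dok7 were below that level.

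At the neuromuscular junction a motor nerve ending releases acetylcholine onto receptors packed beneath it in the muscle membrane. Agrin, secreted by the nerve and in other forms by muscle, binds LRP4. LRP4 then activates the kinase MuSK, which DOK7 binds and helps to switch on, and rapsyn anchors the receptors downstream of it. Receptors of embryonic and denervated muscle hold a gamma subunit, and an epsilon subunit takes its place at mature, innervated junctions. miR-206 is a muscle microRNA known for its part in re-forming these junctions after nerve injury.

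All lines came from C2C12 cells described as PAX7 negative. Genotype and stage set the groups. Of the 4 lines, 2 were control populations labelled wild type. The other 2 were single clones in which miR-206, miR-1a-2 and miR-1a-1 had all been knocked out (tKO, for triple knockout). Cells in growth medium (GM, 20% fetal bovine serum) were taken near confluence, and DM3 cells after 3 days in medium with 2% horse serum. Each line gave 2 cultures per stage, so controls and tKO cells had 4 libraries each in GM and 4 each in DM3, as 4 groups. No nerve was present. Levels of the deleted microRNAs were not analysed here, and the tKO label rests on the submitters' word. The study's title asks whether this microRNA family is needed for muscle function and for myogenesis in culture.

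Depth was 22642563 to 56585952 fragments per library. The summed FPKM of 8 myotube markers was 7.73 to 11.02 in control GM and 550 to 971 in control DM3. In tKO DM3 it was 932 and 979 in culture 1 (clones 1 and 2) but 222 and 314 in culture 2, so the knockout cultures stood apart from each other in this measure. In tKO GM it was 9.56, 18.4 and 26.3, and 72.4 in culture 2 of clone 1. Myod1, a defining gene of myoblasts, was listed at 0 in all 4 control GM libraries and averaged 1.90 FPKM in control DM3. Of 4 motor neuron markers (Chat, Mnx1, Slc18a3 and Isl1), Chat and Mnx1 were at 0 in every library, and the 4 summed to at most 0.0527 FPKM. The 4 Schwann cell markers summed to at most 0.976 FPKM. These were bulk libraries, so fewer cells of a type and less RNA per cell cannot be told apart.

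Stretches of the genes' promoters and the mature microRNA are shown first, because myogenic factors are known to bind E-boxes in receptor subunit promoters and miR-206 is one of the deleted microRNAs. RefSeq windows of 300 bases (250 before and 50 after the annotated start, build GRCm38.p6) were matched to 7 of the 10 genes, with 9 windows in all. Chrnd, Rapsn and Lrp4 had no entry. The windows were searched on both strands for CANNTG, the E-box bound by MYOD1 and myogenin, for its forms CAGCTG and CACCTG, which CANNTG includes, and for CCGGAA, a core bound by ETS factors of the N-box. The lines below give 30 bases around each match of the last 3, read 5′ to 3′ along the gene's strand with the match in capitals. CAGGTG is CACCTG on the opposite strand.
Chrng (chr1:87205644-87205673, + strand): atatcctgggaaCAGCTGacaatgcagtgg
Chrng (chr1:87205667-87205696, + strand): gcagtggtcagaCAGCTGgtggggccagct
Chrna1 (chr2:73580413-73580442, - strand): ctgtgggcagctCAGCTGtcatgcgggcac
Chrna1 (chr2:73580394-73580423, - strand): catgcgggcacaCAGGTGatgtaagacaat
Chrna1 (chr2:73580365-73580394, - strand): tagctgtggagtCAGCTGgcttccaaggcc
Musk (chr4:58285882-58285911, + strand): gtgagttctcccCAGCTGgccacgtccatc
Chrnb1 (chr11:69795949-69795978, - strand): gtcccccgacaaCAGGTGcacattcctggg
Chrne (chr11:70619315-70619344, - strand): cacaggatggggCAGCTGcctcccccaccc
Chrne (chr11:70619253-70619282, - strand): cccaaacctagcCCGGAActaacaccctcc
miR-206-3p (chr1:20679055-20679076, + strand, seed of bases 2 to 8 in capitals): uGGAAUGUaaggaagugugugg

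Chrng and Chrna1 each held CAGCTG 2 times, which 1.91% of 32544 mouse promoter windows of this length did. In Chrng the first bases of the matches lay at -155 and -132 from the RefSeq start, which falls inside the gene as the deposited table lists it, and in Chrna1 at -92 and -44. Musk held 1 CAGCTG at -68 and Chrne 1 at -138, and 16.4% of all windows held at least 1. CACCTG stood in Chrna1 at -73 and in Chrnb1 at -29, against 20.3% of all windows. CCGGAA stood only in Chrne among these 9 windows, at -76, against 14.98% of all. Agrn and Dok7 had a single CANNTG each, in 1 of their 2 windows, and 72.3% of all windows held one. A match is a description of these letters and was not tested as a binding site.

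In control GM, Rapsn was the most abundant of the 10 transcripts at 36.3 ± 7.24 FPKM (SD, n = 4). Lrp4 (7.47), Chrna1 (7.01) and Chrnb1 (6.31) followed, each overlapping its neighbour in the range of its 4 libraries, and Agrn stood at 4.25. Musk, Chrnd, Chrng, Dok7 and Chrne were all below 0.25 FPKM on average. In control DM3 the order was Chrna1 (83.2 ± 7.47 FPKM), then Rapsn (46.9) and Chrng (42.0), whose ranges overlapped, then Lrp4 (24.7) and Chrnd (20.5), which also overlapped. Agrn (13.4) overlapped Chrnb1 (11.05), and Musk followed at 1.79. The alpha subunit transcript stood below that of the anchoring protein in GM and above it in DM3: the ratio of Rapsn to Chrna1 FPKM was 3.77 to 7.39 in control GM libraries and 0.470 to 0.670 in control DM3 libraries. The plot of levels by library shows all 10 genes.

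**Figure D1:**
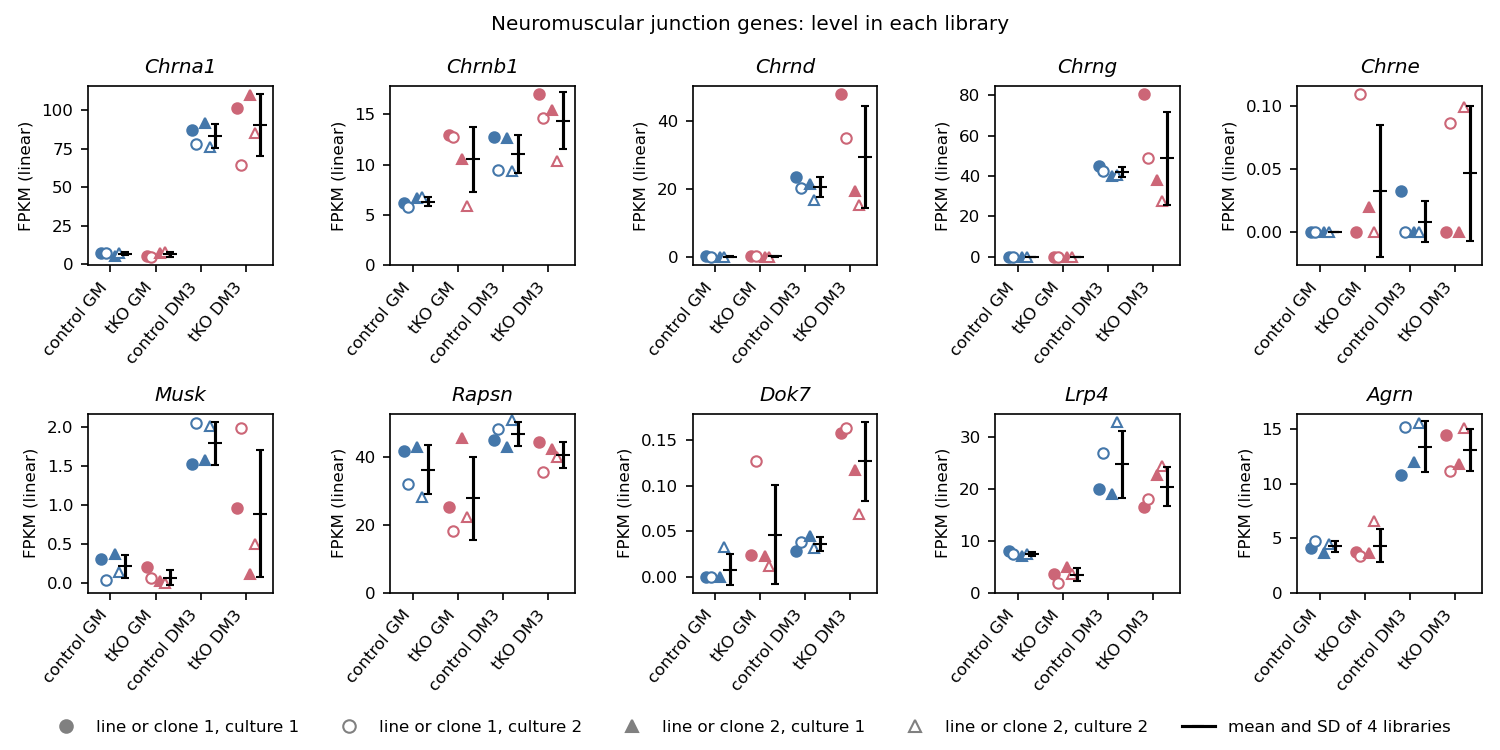
FPKM (linear axis, scale set per gene) of the 10 genes in each of the 16 libraries, by group, with circles for line or clone 1, triangles for line or clone 2, filled for culture 1 and open for culture 2; bars are the mean and SD of 4 libraries. Chrnd and Chrng lie near 0 in GM and at 15.3 to 80.5 FPKM in DM3. In tKO DM3 the clones separate for Chrnd, Chrng, Musk, Lrp4 and Dok7. With 2 libraries per clone, how often any gene separates this way was not worked out.

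Most of these genes rose with differentiation. In control cells 7 of the 8 tested genes rose from GM to DM3 and none fell (limma, adjusted p under 0.05), where 61.5% of all 11832 tested genes were called and 23.2% were called higher. In tKO cells 7 of 8 rose as well, against 60.9% called and 24.9% higher. The 8 genes had a median log2 change of 1.51 (control) and 1.86 (tKO), beside -0.15 and -0.12 for all that were tested. Chrnd, Chrng and Musk averaged under 0.5 FPKM in GM and passed the level filter through DM3 alone, so their direction was fixed by the filter. These counts and medians, and the adjusted p between stages given below for Chrnd, Chrng and Musk, are a description. Ranges of the GM and DM3 libraries did not overlap for all 8 genes in control cells (64.4% of tested genes, 24.5% higher) and for 5 of 8 in tKO cells (49.1%, 19.3% higher). The overlap counts include Chrnd and Chrng in both genotypes and Musk in controls, so they are a description too.

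Chrng, the embryonic gamma subunit (chromosome 1, 87204657 to 87212694), had the largest ratio between stages. Library values here and below are in the order line or clone 1 culture 1, its culture 2, then line or clone 2 likewise. Control GM libraries held 6, 0, 5 and 5 fragments, or 0 to 0.0617 FPKM, and control DM3 libraries held 45.0, 42.4, 40.2 and 40.3 FPKM. In tKO cells the GM libraries held 2 to 5 fragments, and the DM3 libraries stood at 80.5 and 49.0 FPKM in clone 1 and 37.9 and 27.7 in clone 2. The stages were far apart in both genotypes. The ratio of fragment rates was 923 in control cells (95% counting interval 568 to 1615) and 1121 in tKO cells (668 to 2051). On the log2(FPKM + 1) scale, which understates changes of genes this low, the changes were 5.36 and 5.47 (limma adjusted p = 1.42e-11 and 1.65e-11), and a pseudocount of 0.1 or a fit to fragment numbers raised them to as much as 10.1 and 9.87.

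Chrnd, the delta subunit, is the neighbour of Chrng on chromosome 1 (87190607 to 87200070) and rose with it. It held 1 to 26 fragments in control GM libraries (0.0104 to 0.252 FPKM) and 23.6, 20.4, 21.3 and 16.7 FPKM in control DM3. In tKO GM it held 5 to 35 fragments, and in tKO DM3 it stood at 47.8 and 35.1 FPKM in clone 1 and 19.4 and 15.3 in clone 2. GM and DM3 did not overlap in either genotype, while within tKO DM3 both clone 1 libraries lay above every control, and of the clone 2 libraries 1 lay among the controls and 1 just below them. The ratio of fragment rates between stages was 163 (counting interval 122 to 222) in control and 162 (126 to 211) in tKO cells, with log2 changes of 4.26 and 4.55 (limma adjusted p = 2.11e-09 and 1.03e-09).

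Chrna1, the alpha subunit that carries most of the acetylcholine binding site (chromosome 2, 73563215 to 73580338), was already present in growing cells. Control GM libraries stood at 7.21, 7.54, 5.81 and 7.48 FPKM and control DM3 libraries at 87.4, 77.7, 91.6 and 76.2. In tKO cells they stood at 5.77, 4.86, 7.70 and 8.27 FPKM in GM, and at 101, 64.2, 110 and 85.4 in DM3. No GM library came near a DM3 library. The rise was 11.9-fold in the mean FPKM of control cells and 13.6-fold in tKO cells, with log2 changes of 3.40 (SE 0.167) and 3.57 (SE 0.167) and limma adjusted p = 2.88e-10 and 1.59e-10.

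Chrnb1, the beta subunit that rapsyn contacts in the assembled receptor (chromosome 11, 69784036 to 69795943), moved least of the 4 detected subunits. Control GM libraries stood at 6.13, 5.73, 6.63 and 6.74 FPKM and control DM3 libraries at 12.7, 9.46, 12.7 and 9.37. In tKO cells GM gave 12.9 and 12.7 FPKM in clone 1 and 10.5 and 5.89 in clone 2, and DM3 gave 17.1, 14.7, 15.5 and 10.4. The stages did not overlap in controls but overlapped in tKO cells. The log2 change was 0.71 in control cells (SE 0.199, limma adjusted p = 0.00546), where the call was lost without control line 1 (adjusted p = 0.139), control line 2 (0.0649) or culture 1 (0.179). It was 0.45 in tKO cells and missed the threshold (limma adjusted p = 0.06), with 0.0193 to 0.248 over 21 alternatives, 9 of them under 0.05. Those 9 include leaving out either clone 1 GM library (0.0320 and 0.0346), culture 2 of clone 2 in DM3 (0.0193), clone 1 (0.0449) or culture 2 (0.0340).

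Chrne, the epsilon subunit of the adult receptor (chromosome 11, 70614883 to 70619216), was at or near the detection floor in all groups. It was listed at 0 in all 4 control GM libraries and in 3 of 4 control DM3 libraries, with 2 fragments in the other. The tKO libraries held 0, 4, 1 and 0 fragments in GM and 0, 4, 0 and 5 in DM3. A count of 0 allows 3 fragments, or 0.0328 to 0.0820 FPKM depending on the library, so a low level was not detectable at this depth. An antisense-strand neighbour, 4930544D05Rik, overlaps Chrne and reached 0.0407 FPKM at most. Whether counting used strand is not given in the sources used here. Of the gamma and epsilon subunits together, gamma made up 99.6% to 100% of FPKM in the 8 DM3 libraries.

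Rapsn, which encodes rapsyn (chromosome 2, 91035620 to 91045729), was high at both stages. Control GM libraries stood at 41.9, 32.2, 42.9 and 28.2 FPKM and control DM3 at 45.2, 48.4, 43.1 and 51.0. In tKO cells the values were 25.3, 18.3, 45.7 and 22.4 FPKM in GM and 44.4, 35.6, 42.5 and 39.97 in DM3. The control stages came close without overlapping, and in tKO cells clone 2 culture 1 in GM lay above all DM3 libraries. The log2 change of 0.38 in control cells missed the threshold (SE 0.206, limma adjusted p = 0.121). It passed without culture 1 (0.70, adjusted p = 0.00351) and in a fit of the control libraries alone (adjusted p = 0.0214). Such a fit with line and culture as a replicate block passed as well (adjusted p = 0.0417). So did median-of-ratios scaling (0.58, adjusted p = 0.0249), a scaling under which the median of all tested genes moved from -0.15 to 0.0097 (control) and from -0.12 to 0.0063 (tKO). In tKO cells Rapsn rose by 0.60 (SE 0.206, limma adjusted p = 0.018). That call was lost without GM culture 2 of clone 1 (0.0724) or clone 2 (0.0533), without clone 1 (0.289) or culture 2 (0.272), and in a fit of the tKO libraries alone (0.0567). A noncoding gene on the other strand, Gm13778, overlaps Rapsn and reached 1.33 FPKM.

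Musk, the receptor kinase (chromosome 4, 58285960 to 58374303), stayed low even after differentiation. Control GM libraries held 0.309, 0.0470, 0.373 and 0.144 FPKM and control DM3 libraries 1.52, 2.05, 1.58 and 2.01. In tKO GM it held 0.207 and 0.0645 FPKM in clone 1 and 0.0279 and 0 in clone 2, and in tKO DM3 0.965 and 1.99 in clone 1 but 0.116 and 0.498 in clone 2. The GM values rest on 4 to 43 fragments a library in control and 0 to 21 in tKO cells. The stages overlapped in tKO cells, where the lowest DM3 library rests on 11 fragments. In control cells mean FPKM was 8.20-fold higher in DM3, with a log2 change of 1.20 (SE 0.218, limma adjusted p = 0.000168). In tKO cells mean FPKM was 11.9-fold higher, with a log2 change of 0.72 (SE 0.218, limma adjusted p = 0.00861). At these levels log2(FPKM + 1) compresses folds, and the smaller tKO change is not a smaller ratio. The tKO call was lost without clone 1 (0.35, adjusted p = 0.134) or culture 2 (0.41, adjusted p = 0.214).

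Lrp4, the agrin co-receptor (chromosome 2, 91457511 to 91513779), rose in both genotypes. Control GM libraries stood at 8.07, 7.40, 6.99 and 7.41 FPKM and control DM3 libraries at 20.0, 26.9, 19.0 and 32.8. The tKO libraries stood at 3.61 and 1.82 FPKM (clone 1) and 4.89 and 3.68 (clone 2) in GM, and at 16.4, 18.1, 22.6 and 24.4 in DM3. The stages did not overlap in either genotype. Mean FPKM was 3.31-fold higher in control DM3 and 5.82-fold higher in tKO DM3, with log2 changes of 1.57 and 2.28 (SE 0.205 each, limma adjusted p = 6.91e-06 and 1.22e-07).

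Agrn, which encodes agrin (chromosome 4, 156165290 to 156197488), rose by nearly the same amount in both genotypes. Control GM libraries stood at 4.11, 4.79, 3.64 and 4.47 FPKM and control DM3 libraries at 10.8, 15.2, 12.01 and 15.6. In tKO cells GM gave 3.75, 3.37, 3.63 and 6.55 FPKM and DM3 gave 14.4, 11.1, 11.8 and 15.1. The stages did not overlap, and the nerve and muscle forms of agrin are not separated in a value per gene. The log2 changes were 1.44 and 1.43 (SE 0.170 each, limma adjusted p = 2.27e-06 and 2.36e-06), with a ratio of mean FPKM of 3.15 and 3.03.

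Dok7, the cytoplasmic activator of MuSK (chromosome 5, 35056813 to 35087839), was scarcely detected. Control libraries held 0 to 3 fragments in GM and 3, 6, 4 and 3 in DM3. The tKO libraries held 2, 8, 2 and 1 in GM and 14, 13, 9 and 6 in DM3, with a mean of 0.126 FPKM. A count of 0 allows up to 0.0191 to 0.0477 FPKM. GM and DM3 overlapped in both genotypes, and a two-sided exact permutation test gave p = 0.0857 in each (n = 4 per group).

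**Figure D2:**
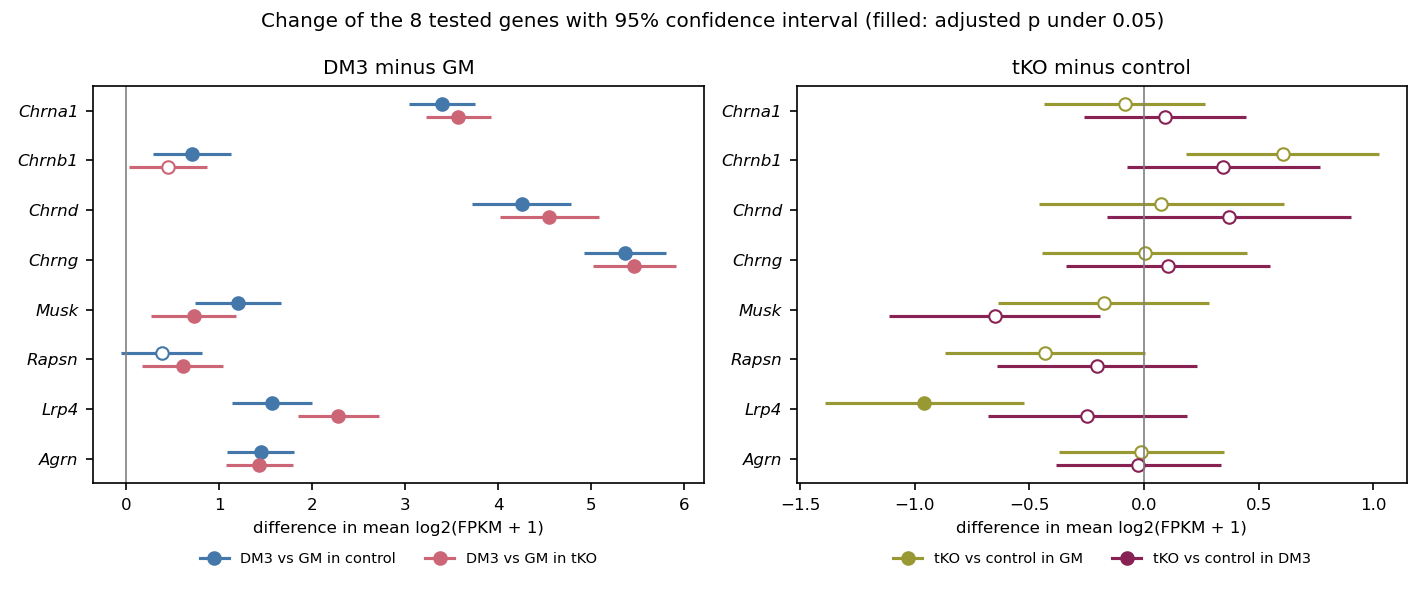
Difference in mean log2(FPKM + 1) with its 95% confidence interval for the 8 tested genes, between stages (left) and between genotypes (right); filled points have a limma adjusted p under 0.05. Chrng, Chrnd and Chrna1 sit at 3.40 or above between stages, and Lrp4 in GM, at -0.96, is the single filled point between genotypes. The direction of Chrng, Chrnd and Musk between stages was fixed by the level filter.

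Between genotypes in growth medium, 1 of the 8 tested genes differed. Lrp4 was lower in tKO cells, where 2.06% of all tested genes were called and 1.51% were lower. The 4 tKO GM libraries (1.82 to 4.89 FPKM) all lay below the 4 control GM libraries (6.99 to 8.07), the only tested member with no overlap, where 14% of all tested genes did not overlap and 8.62% were lower without overlap. The tKO mean was 0.469 of the control mean. The log2 difference was -0.96 (SE 0.205, limma adjusted p = 0.0239), -0.71 within culture 1 and -1.21 within culture 2. It stayed between -1.23 and -0.69 in 22 alternatives but was called in 10 of them. The adjusted p rose to 0.0554 to 0.0855 without any 1 of the 4 control GM libraries, to 0.0705 without culture 2 of clone 1 (-0.75), to 0.116 without clone 1, to 0.619 and 0.262 without control lines 1 and 2, and to 0.107 with the lines as units. Culture 2 of clone 1, the lowest Lrp4 library, is also the GM library with the highest myotube marker sum (72.4 FPKM), and the part of differentiation in this value was not tested.

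None of the other 7 tested genes was called in GM. Chrnb1 had a mean of 10.5 ± 3.27 FPKM in tKO and 6.31 ± 0.467 in control GM (SD, n = 4), a log2 difference of 0.61 (limma adjusted p = 0.126). Its 2 clone 1 libraries and culture 1 of clone 2 lay above every control and the fourth tKO library (5.89 FPKM) lay among them. Without that library the difference was 0.83 (adjusted p = 0.0154), and without clone 2 it was 0.92 (adjusted p = 0.00255). Rapsn had 27.9 ± 12.2 against 36.3 ± 7.24 FPKM, a difference of -0.43 (adjusted p = 0.292), with culture 1 of clone 2 (45.7 FPKM) above all controls. Without that library it was -0.69 (adjusted p = 0.015) and without clone 2 -0.71 (adjusted p = 0.0265). Musk had a mean of 0.0749 FPKM in tKO against 0.218 in control GM, a ratio of 0.343, with overlap. Its log2 difference was -0.18 on the log2(FPKM + 1) scale, -0.86 with a pseudocount of 0.1 and -2.27 in a fit to fragment numbers (voom), and it was called in 0 of 22 alternatives. Chrna1 (-0.085), Chrnd (0.076), Chrng (0.0026), Musk and Agrn (-0.012) were not called (limma adjusted p of 0.728 to 0.997). Chrnd and Chrng averaged at most 0.185 FPKM in GM, where log2(FPKM + 1) compresses differences. For Chrnd a pseudocount of 0.1 gave 0.35 and voom 0.80, and for Chrng they gave 0.036 and 0.34. None of these was called, and equal levels were not shown. The 95% intervals allow log2 differences of -0.44 to 0.27 for Chrna1 and -0.37 to 0.35 for Agrn.

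After differentiation none of the 8 tested genes was called between genotypes, where 3.38% of all tested genes were. At an unadjusted p under 0.05 there was 1 (Musk). None of the 8 was without overlap, against 8.52% of tested genes. Musk had a mean of 0.892 ± 0.810 FPKM in tKO and 1.79 ± 0.276 in control DM3 (SD, n = 4). Of the 4 tKO libraries, 3 lay below every control, and culture 2 of clone 1 (1.99 FPKM) lay among them. The log2 difference was -0.65 (SE 0.218, limma adjusted p = 0.123). Within culture 1 it was -0.78 and within culture 2 -0.52. The myotube marker sum of tKO cells was above the controls in culture 1 and below them in culture 2, and its part in the difference was not tested. It passed without culture 2 of clone 1 (-0.90, adjusted p = 0.00988) and without clone 1 (-1.10, adjusted p = 0.0016), which leaves the clone with the lower values.

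Chrnb1 averaged 14.4 ± 2.86 FPKM in tKO against 11.05 ± 1.89 in control DM3. It was 0.33 higher within culture 1 and 0.36 within culture 2, and the pooled difference of 0.35 did not pass (SE 0.199, limma adjusted p = 0.398). Chrnd averaged 29.4 ± 14.95 against 20.5 ± 2.87 FPKM (0.37, adjusted p = 0.483), and Chrng 48.8 ± 22.9 against 42.0 ± 2.28 (0.11, adjusted p = 0.856). Both were called higher when clone 2 was left out (Chrnd 0.97, adjusted p = 0.00413; Chrng 0.57, adjusted p = 0.0472) and had the opposite sign when clone 1 was left out (-0.23 and -0.36, not called). Chrna1 (0.091), Rapsn (-0.21), Lrp4 (-0.25) and Agrn (-0.025) had limma adjusted p of 0.584 to 0.963. In culture 2 alone, where tKO marker sums were lower, Rapsn, Lrp4 and Agrn were lower in tKO cells (-0.39, -0.48 and -0.23). In culture 1 the differences were -0.023, -0.015 and 0.18. These within-culture differences, with 2 libraries per arm, were not tested.

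Of the 10 genes only Dok7 had tKO and control DM3 libraries that did not overlap, at 0.157, 0.163, 0.117 and 0.0694 FPKM against 0.0283 to 0.0452. Among all tested genes 8.52% did not overlap in this contrast, so 1 of 10 is near that share. The ratio of fragment rates was 3.52 (95% counting interval 1.94 to 6.71). The two-sided exact permutation p was 0.0286, the smallest that 70 splits of 4 against 4 can give. It is unadjusted and 1 of 8 such tests made on Dok7 and Chrne, the other 7 giving 0.0857 to 1. The test takes the 4 libraries of a group as separate units, though they come from 2 lines. At 3 to 14 fragments per library these levels stood at or just above the detection floor.

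The genotype by stage interaction asks whether a gene's change with differentiation differed between genotypes, and none of the 8 was called, where 0.254% of all tested genes were. Lrp4 alone had an unadjusted p under 0.05, with an interaction of 0.71 (SE 0.290, unadjusted p = 0.0256, limma adjusted p = 0.372). This is the size by which its rise was larger in tKO cells, and its confidence interval ran from 0.098 to 1.33. The interaction was -0.47 for Musk, 0.30 for Chrnd and between -0.26 and 0.23 for the other 5 genes, with adjusted p of 0.595 to 0.992. The sign depended on the scale for genes near 0 in GM: in a fit to fragment numbers (voom) Musk was 0.68, Chrnd -0.42 and Chrng -0.23, none of them called.

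The knockout clones differed from each other in Chrnd. In a fit of the 8 line-by-stage means, chosen after the values were seen, Chrnd was lower in clone 2 than in clone 1 by a log2 difference of -0.72 averaged over the stages (SE 0.144, limma adjusted p = 0.0154), with 5.41% of all tested genes called in that contrast. Musk (-0.53, adjusted p = 0.0806), Chrng (-0.47, 0.0889) and Chrnb1 (-0.47, 0.155) were lower and Lrp4 (0.48, 0.163) and Chrna1 (0.39, 0.159) higher in clone 2, and none of these passed. Between the control populations the same comparison gave -0.16 for Chrnd, 0.053 for Musk and 0.0075 for Lrp4. None of the 8 genes, and 0% of tested genes, was called there.

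The make-up of the receptor transcripts restates the values above as shares of a sum. A higher share of any subunit lowers the others, so the shares are no further evidence that the clones differ. Chrna1 FPKM itself overlapped between the clones in DM3, at 101 and 64.2 in clone 1 and 110 and 85.4 in clone 2. In GM, Chrna1 and Chrnb1 made nearly all of the summed FPKM of the 5 subunits, which was 12.6 to 14.3 in control and 14.2 to 19.1 in tKO libraries. In DM3 that sum was 142.5 to 169 in control libraries, of which Chrna1 made 51.8% to 55.3%, Chrng 24.2% to 28.3%, Chrnd 11.7% to 14.004% and Chrnb1 6.31% to 7.63%. In clone 1 Chrna1 made 41.1% and 39.4%, below every control, and Chrng 32.6% and 30.1%, above every control. In clone 2 Chrna1 made 60.2% and 61.5% and Chrng 20.8% and 19.9%, on the other side of the controls. The ratio of Chrna1 to Chrnd FPKM was 3.70 to 4.55 in controls, 2.12 and 1.83 in clone 1, and 5.66 and 5.59 in clone 2. The summed FPKM of 4 dividing-cell markers in DM3 was 28.5 and 48.8 in clone 1, below every control (69.0 to 84.96), and 93.8 and 68.7 in clone 2, and its part in the shares was not tested. Group means hid the clones' shares: Chrna1 averaged 53.1% ± 1.65 in control and 50.6% ± 11.9 in tKO DM3 (SD, n = 4). The assembled receptor holds the alpha subunit as a pair and 1 each of the others, and transcript shares say nothing of protein.

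**Figure D3:**
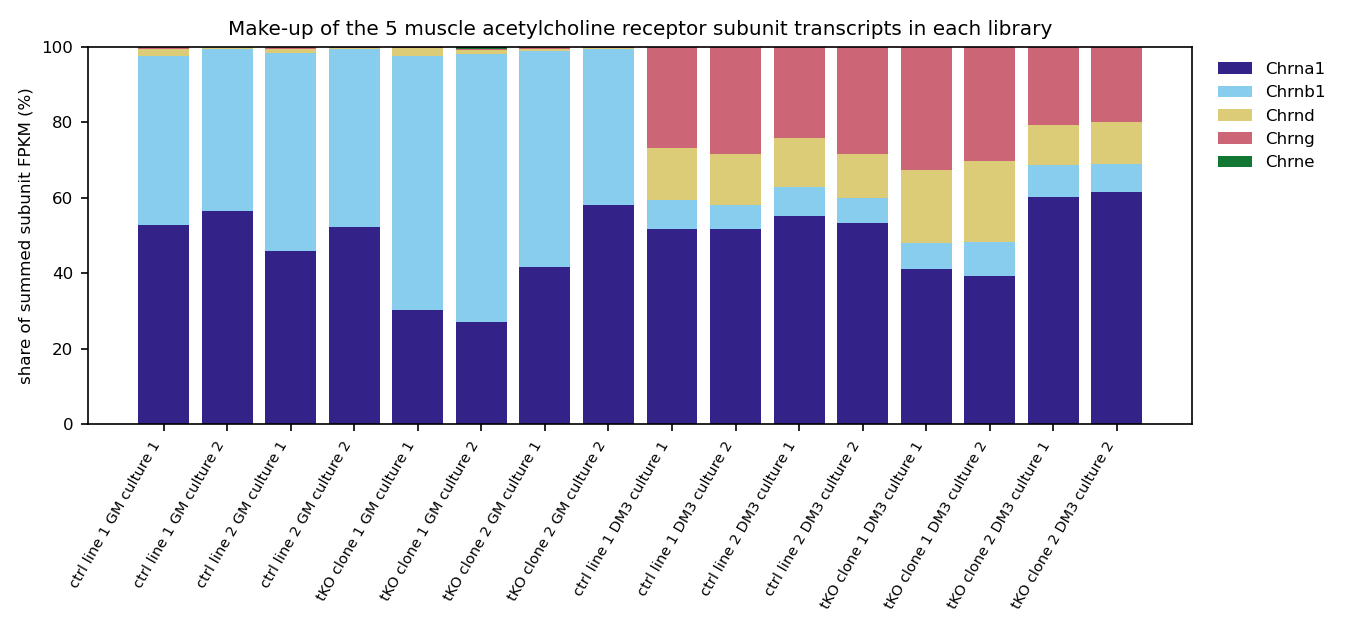
Share (%) of the summed FPKM of the 5 receptor subunit genes in each of the 16 libraries, 1 bar per library. Chrna1 and Chrnb1 fill the GM bars, Chrng and Chrnd appear in DM3, and in DM3 clone 1 has the lowest Chrna1 shares (41.1% and 39.4%) and clone 2 the highest (60.2% and 61.5%).

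Across the 8 DM3 libraries the members did not move as 1 block. Of 28 pairs, 6 had a Pearson r of log2(FPKM + 1) above 0.5 and 6 below -0.5. Chrnd and Chrng were the most alike (r = 0.92, Spearman's rho 0.88), and Chrnb1 and Lrp4 the most opposed (r = -0.85, rho -0.83). Chrna1 and Musk had r = -0.75. By the same measure the most similar of all tested genes were Mgat4b for Chrna1 (r = 0.97), Smim8 for Chrnd (0.99), Rps20 for Chrng (0.98), Srm for Chrnb1 (0.98), Afap1l2 for Musk (0.98), Fbxo31 for Rapsn (0.96), Mtcp1 for Lrp4 (0.98) and Cyr61 for Agrn (0.97). Tmem8c, which encodes the fusion protein myomaker, was the third nearest to Chrna1 (0.96). These are descriptions over 8 libraries that share lines and cultures, picked from 11832 genes, and carry no test.

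Genes that act with these 10 were taken from 6 lists, whose counts below stand beside the 23.2% higher and 38.3% lower calls among all tested genes in control cells and 24.9% and 36% in tKO cells. The other nicotinic receptor subunits, known mainly from neurons, were nearly absent. None of the 11 reached the test, Chrna7, Chrna9 and Chrnb3 were at 0 in all 16 libraries, and the highest value was 0.430 FPKM for Chrnb2. Among activity-dependent regulators of the receptor genes, 4 of 6 tested rose and 1 fell in control cells (median 0.73), and 4 rose and 0 fell in tKO cells (0.67). Myog, the myogenic factor that drives receptor subunit genes, rose by 2.66 (limma adjusted p = 2.4e-05) in control cells, from 0.0048 to 5.96 FPKM, and by 3.50 (1.4e-06) in tKO cells, from 0.0483 to 12.96 FPKM. Myod1, which binds the same E-boxes, rose by 1.47 (limma adjusted p = 2.32e-05) and 1.68 (5.83e-06). Both were at or near 0 in GM, so these differences on the log2(FPKM + 1) scale are not folds. Like Lama2 below, they averaged under 0.5 FPKM in GM in both genotypes and passed the level filter through DM3, so their direction was fixed by it. Hdac4, a deacetylase that responds to nerve activity, had changes of 0.68 (0.000398) without the microRNA deletions and 0.84 (5.62e-05) with them, and rose in both genotypes.

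Of the synaptic matrix and membrane list, 14 of 21 genes were tested, and 8 rose and 2 fell in control cells (median 0.37), 9 and 2 in tKO cells (0.77). Lama2, the laminin chain of the muscle basement membrane, rose from 0.319 ± 0.216 to 14.4 ± 1.59 FPKM in control cells (3.56, limma adjusted p = 1.94e-09). Lamb2, the laminin chain concentrated at the synapse, rose by 1.26 (4.62e-08). The cytoskeletal genes Plec and Nes fell, with log2 changes of -1.20 and -1.19 (6.49e-06 and 1.63e-05). Colq and Ache, the anchor and the enzyme that clear acetylcholine, were under the test's level, at no more than 0.695 and 0.160 FPKM. Dtna, the dystrobrevin of the synaptic membrane, was the only one of the 14 tested genes of this list called between genotypes. It was higher in tKO DM3, where 3.38% of all tested genes were called, at 5.48 ± 1.58 against 2.84 ± 0.554 FPKM (0.74, limma adjusted p = 0.0375). That call held in 6 of 22 alternatives, with adjusted p up to 0.448. Lama4, a laminin chain under the test's level, was named after its values were seen. It was lower in tKO libraries without overlap at both stages, where 14% (GM) and 8.52% (DM3) of tested genes did not overlap. It stood at 0 to 0.0107 against 0.0852 to 0.166 FPKM in GM and at 0.0103 to 0.197 against 1.15 to 1.35 FPKM in DM3, and these differences were not tested.

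Downstream of MuSK the picture was mixed. Of 25 signalling and clustering genes 5 rose and 11 fell in control cells (median -0.25) and 4 rose and 12 fell in tKO cells (-0.35). Dvl1, a MuSK-binding Dishevelled protein, rose by 1.40 (limma adjusted p = 1.98e-07) in control and 1.22 (8.23e-07) in tKO cells. Fyn, a Src family kinase, rose by 1.03 (4.1e-06) and 0.80 (5.03e-05). The adaptors Crk and Crkl, which bind phosphorylated DOK7, fell, with log2 changes of -1.19 (5.57e-06) and -1.03 (1.26e-05) in control cells. Hsp90aa1, a chaperone, fell in both and was higher in tKO than control DM3 (185.7 ± 59.3 against 92.9 ± 17.6 FPKM, 0.94, limma adjusted p = 0.0239). It was the only one of the 25 called between genotypes in DM3, where 3.38% of all tested genes were. That call held in 12 of 22 alternatives, with adjusted p up to 0.518.

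Tested neuregulin pathway genes fell or did not pass. Of 6 tested, 4 fell in control cells (median -0.52) and 5 in tKO cells (-0.60), and none rose. Erbb3, a neuregulin receptor under the test's level and named after its values were seen, stood higher in DM3 in both genotypes. It held 0.0148 to 0.0571 FPKM in control GM and 0.240 to 0.400 in control DM3. In tKO cells it held 0.0162 to 0.154 FPKM in GM and 0.299 to 0.823 in DM3, and this was not tested. Etv4, an ETS factor, fell from 13.8 ± 2.73 to 2.53 ± 0.0849 FPKM in control cells (-2.05, limma adjusted p = 1.2e-05), and Erbb2, a neuregulin receptor, fell by 1.20 (2.25e-06). Of 5 glycosylation genes mutated in congenital myasthenia, 2 rose in each genotype: Alg2 by 0.69 (limma adjusted p = 0.000112) and Gfpt1 by 0.43 (0.0233) in control cells. No gene of the 6 lists was called between genotypes in GM or in the interaction, where 2.06% and 0.254% of all tested genes were.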

How the data were processed

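Poly(A)-selected RNA from 16 libraries was sequenced on an Illumina HiSeq instrument, per the labels. The authors deposited 1 table of FPKM values with a column per library, gene lengths and positions, without pooling. The submitters' processing notes name STAR, DESeq and build mm10, without roles or versions. The counting program, annotation and use of strand are not given in the sources used here. FPKM times gene length gave whole multiples of 1 step per library for 100% of values above 0 (tolerance 0.01 fragments), from which fragment numbers and depth (22642563 to 56585952) were recovered. The detection floor of 3 fragments and all counting intervals cover counting error only. Of the table's gene identifiers 97.8% are in GENCODE release 21.

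Genes with a mean of at least 0.5 FPKM over the 16 libraries (11832) were fitted on log2(FPKM + 1) with limma 3.58.1 in R 4.3.3, in a group-means model of all 16 libraries with trended, robust empirical Bayes moderation and Benjamini-Hochberg adjustment over all of them, and called at an adjusted p-value under 0.05. There were 5 contrasts: tKO against control in each stage, DM3 against GM in each genotype, and their interaction. The difference between lines of a genotype was fitted with 8 line-by-stage means, a comparison added after the values were seen. Chrne and Dok7, below the filter, had two-sided exact permutation tests of log2(FPKM + 1) over 70 splits. The fit was run on simulated independent libraries without line, clone or culture effects, so that run cannot give error rates for this design. Alternatives were pseudocount 0.1, no filter, TPM, median-of-ratios scaling, voom on fragment numbers, only the compared libraries, line averages, replicate blocks, and leaving out each library, line or culture. Python 3.11.15, numpy 2.4.6, pandas 2.3.3 and scipy 1.17.1 were used.

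All 10 genes are named. Of each further list, at most the 3 genes with the largest change in each direction among those called are named, and some genes under the test's level are named as well. The 10 genes and the 6 lists were chosen with earlier results of these data known. Libraries of a group came from 2 lines with 2 cultures each, and the labels say no more of how cultures were made, so p-values measure the spread between these libraries. No pair of libraries of a group agreed within sampling noise (chi-square per degree of freedom 20.5 to 256 over 24 pairs).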

Additional observations from a re-analysis of the deposited data

Results flagged for a closer look

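Of the 40 sets of 4 libraries (10 genes in 4 groups), 5 held a library far from the other 3. For continuous, normally spread values chance marks about 1 set in 20 this way, a rate that does not hold for fragment numbers near 0. Agrn in tKO GM stood at 6.55 FPKM in culture 2 of clone 2 and at 3.37 to 3.75 in the others, a value that rests on 1739 fragments. The other 4 rest on 0 to 8 fragments a library. Dok7 in tKO GM was 0.127 FPKM (8 fragments) in culture 2 of clone 1 and 0.0117 to 0.0243 in the others. Dok7 in control GM was 0.0332 FPKM (3 fragments) in culture 2 of line 2 and 0 in the others. Chrne in control DM3 was 0.0324 FPKM (2 fragments) in culture 1 of line 1 and 0 in the others. Chrng in control GM was 0 in culture 2 of line 1, with 0.0533 to 0.0617 FPKM in the others.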

How the results depend on the processing

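The 8 tested genes in 5 contrasts gave 40 changes, recomputed to 920 values. Of these, 826 kept direction and side of the threshold, 22 lost a call, 21 gained one and 51 changed sign. The sign changes fell in 13 results and none passed the threshold (lowest limma adjusted p = 0.124). The count of genes called between genotypes in GM was 1, and 0 with no filter or with line averages. It ran from 0 to 3 over leave-outs of a library, line or culture, and from 0 to 2 in DM3. Sign changes in GM were Agrn 0.0053 with median-of-ratios scaling and, over leave-outs, ranges of -0.34 to 0.17 for Chrna1, -0.041 to 0.19 for Chrnd, -0.017 to 0.019 for Chrng and -0.20 to 0.18 for Agrn. In DM3 the ranges were -0.054 to 0.24 for Chrna1, -0.23 to 0.97 for Chrnd, -0.36 to 0.57 for Chrng and -0.23 to 0.18 for Agrn. For the interaction they were -0.19 to 0.78 for Chrnd, -0.36 to 0.56 for Chrng, -0.027 to 0.48 for Rapsn and -0.26 to 0.24 for Agrn. Voom gave interactions of -0.42 for Chrnd, -0.23 for Chrng and 0.68 for Musk, and TPM 0.060 for Agrn. The cause was not tested. Same-numbered cultures of the genotypes correlated after centring at 0.0955 to 0.452 in GM and -0.224 to 0.558 in DM3 (different numbers -0.419 to -0.0558 and -0.456 to 0.338). The GM and DM3 libraries of 1 line and culture correlated at 0.0923 to 0.291 (control) and 0.0771 to 0.323 (tKO). Other pairs of GM and DM3 libraries correlated at -0.298 to 0.236 and -0.363 to 0.361. Between genotypes in GM, every same-numbered pair lay above every differently numbered one. Not every same-numbered pair exceeded 0.1 and the labels state no pairing, so the main fit held no block. An effect shared by cultures of the same number therefore stays in its spread. With a replicate block for culture number, 1 and 0 genes were called between genotypes in GM and DM3, 7 and 8 between stages in control and tKO cells, and 0 in the interaction. With line and culture as the replicate block, 8 and 8 were called between stages. The blocks added calls for Rapsn in control cells (line and culture, adjusted p = 0.0417) and Chrnb1 in tKO cells (0.0347 with culture, 0.0312 with line and culture). Depth limits Chrne, Dok7 and, in GM, Chrng, Chrnd and Musk, which rest on 0 to 43 fragments a library.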
